A study of Rattus norvegicus with 24 samples.

Results

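Expression of 8 genes of the fibrotic response was described in the heart septum of rats: Tgfb1 and Ccn2, which signal for scar formation, Timp1, Mmp2 and Spp1, which act on or in the extracellular matrix, and Acta2, Tagln and Vim, which belong to the cytoskeleton of myofibroblasts. They were taken as a fixed list of Ensembl gene IDs, each checked against its expected chromosome. All 8 were found on that chromosome among the 30562 genes of the deposited table, and all 8 were among the 17347 genes that passed the filter on low counts. Messenger RNA was sequenced from 24 Sprague-Dawley rats, 6 per group, on day 28. All rats had undergone cardiac ischemia-reperfusion injury and carried a cannula in the cerebral ventricles. The first group had its brown adipose tissue (BAT, fat that burns fuel for heat) ablated and was infused with leptin, the second had its BAT sympathetically denervated and was infused with leptin, the third had intact BAT and leptin, and the fourth had intact BAT and vehicle. None of the operated rats analysed here received vehicle, so the operations without leptin are not covered, and no uninjured heart was analysed here. How BAT was ablated or denervated, and the rats' age, are not given in the sources used here.

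After ischemic injury, cardiac fibroblasts are activated by transforming growth factor beta, acquire contractile filaments and deposit collagen, which replaces lost muscle and stiffens what remains. Matrix is at the same time cut by metalloproteinases, whose activity is held in check by tissue inhibitors. Leptin acts in the brain on hypothalamic neurons that raise sympathetic outflow, BAT being one of its targets. In whole septum, fewer cells of a type and less RNA per cell cannot be told apart. The labelled tissue was not checked against marker genes of its cell types, because none of the IDs was paired with a symbol in the gene table used here.

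The promoters of 4 of these genes are shown because, in the 17 low-numbered rats defined further on, Ccn2, Timp1 and Vim varied together and Acta2 did not follow them. Each stretch is the 250 bases before the annotated start, 5′ to 3′ on the gene's strand, from RefSeq on the GRCr8 assembly, which is not the assembly of the counts. Capitals mark matches to the motifs searched.
Ccn2: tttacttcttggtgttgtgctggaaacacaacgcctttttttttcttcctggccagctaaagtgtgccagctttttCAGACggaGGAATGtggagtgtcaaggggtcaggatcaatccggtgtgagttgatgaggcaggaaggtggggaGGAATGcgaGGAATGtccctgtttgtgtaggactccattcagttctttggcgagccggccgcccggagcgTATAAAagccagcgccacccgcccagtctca
Timp1: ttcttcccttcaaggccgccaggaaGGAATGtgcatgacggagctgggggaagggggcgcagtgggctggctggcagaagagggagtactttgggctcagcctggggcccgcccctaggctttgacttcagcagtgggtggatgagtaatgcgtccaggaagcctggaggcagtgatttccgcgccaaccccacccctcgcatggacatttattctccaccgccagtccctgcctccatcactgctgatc
Vim: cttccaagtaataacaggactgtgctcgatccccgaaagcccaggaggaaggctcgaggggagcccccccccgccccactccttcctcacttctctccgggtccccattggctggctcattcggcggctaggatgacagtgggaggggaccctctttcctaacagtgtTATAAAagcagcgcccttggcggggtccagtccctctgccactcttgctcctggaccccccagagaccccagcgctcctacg
Acta2: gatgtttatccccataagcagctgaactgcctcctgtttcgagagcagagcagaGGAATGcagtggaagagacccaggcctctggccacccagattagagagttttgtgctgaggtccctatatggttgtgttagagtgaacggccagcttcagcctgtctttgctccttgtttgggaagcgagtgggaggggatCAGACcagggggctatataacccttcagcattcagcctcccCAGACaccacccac
Ccn2 lies at chr1:22624615-22624864 (minus strand), Timp1 at chrX:3771123-3771372 (minus), Vim at chr17:81577011-81577260 (plus) and Acta2 at chr1:241172504-241172753 (minus). The motifs were searched on both strands from 250 bases before to 50 bases after the start: the CArG box bound by serum response factor (CC, then 6 bases that are A or T, then GG), the AP-1 site TGANTCA, the SMAD element CAGAC, the TEAD site GGAATG and the TATA box TATAAA. No matches overlapped. Ccn2 held 3 GGAATG matches, whose first bases lie at -166, -101 and -92 from the start, together with CAGAC at -174 and 30 and TATAAA at -31. Timp1 held GGAATG at -225. Acta2 held GGAATG at -196 and CAGAC at -55 and -14, and Vim held TATAAA at -82. Over all 33469 promoters of the same length in the table, GGAATG occurred at least once in 14.2% and at least 3 times in 0.0956%, CAGAC in 50.1% and TATAAA in 14.2%. Promoters were found for 6 of the 8 genes (Tgfb1 and Spp1 besides these), and none of the 6 held the CArG box in this strict form, found in 1.64% of all promoters, or TGANTCA, found in 7.33%. With exactly 1 G or C among the 6 core bases, which is the form known for Acta2, the box occurred 2 times in Acta2, with first bases at -134 and -84, and 1 time in Tgfb1 at -104, against at least 1 time in 8.1% and at least 2 times in 0.532% of all promoters. These matches are not in capitals.

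Per exon length, Vim, the intermediate filament protein of mesenchymal cells, was the most abundant of the 8, with a mean of 450 RPKM (reads scaled to exon length and to library size) over the 24 libraries. Ccn2 followed at 178 RPKM, then Tagln at 84.4, Acta2 at 79.1, Mmp2 at 64.1, Timp1 at 39.5, Tgfb1 at 28.8 and Spp1 at 16.1 RPKM. Spp1 varied most between libraries, with a coefficient of variation of CPM (reads scaled to library size after TMM normalization) of 94.5%, and Tgfb1 least, with 33.5%. Library totals were 71587993 to 122910706 reads. The smallest count of any member in any library was 275 reads, for Timp1, so counting error is small beside the spread between rats.

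The 24 libraries fall into sets by rat number. The 7 libraries from the highest-numbered rats (1 of the ablation, 2 of the denervation, 1 of the intact BAT with leptin and 3 of the vehicle group) stand apart from the other 17, at a boundary that was read earlier from the first principal component of these same data. What the rat numbers stand for is not given in the sources used here. Tagln, an actin-binding protein of smooth muscle and myofibroblasts, averaged 44.5 ± 9.38 CPM (SD, n = 7) in the high-numbered rats and 134 ± 41.4 CPM (SD, n = 17) in the others, and the sets did not overlap. In the high-numbered rats Timp1 averaged 15.1 CPM, Vim 410 CPM and Tgfb1 27.4 CPM, against 42.5, 952 and 47.9 CPM in the others. The ratio of the mean of the high-numbered rats to that of the others was 0.993 for Mmp2 (202 against 203 CPM) and 0.903 for Ccn2 (455 against 504 CPM). The sets thus stood furthest apart in Tagln and Timp1 and closest in Mmp2. These values are a description with no test. The groups hold different numbers of each set. Every comparison was therefore fitted as designed (with groups only), then with a term for the set, and then within the low-numbered rats. All ablation rats had higher numbers than the 4 intact BAT rats with leptin numbered 56 to 62. Neither the set term nor the low-numbered fit therefore separates ablation from rat number among the low-numbered rats. The boundary came from these same data, so p-values with the set term may be too small, which was not tested. The high-numbered rats were also fitted alone, where the single ablation library and the single leptin library are assumed to vary as much as the libraries of the other groups.

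**Figure D1:**
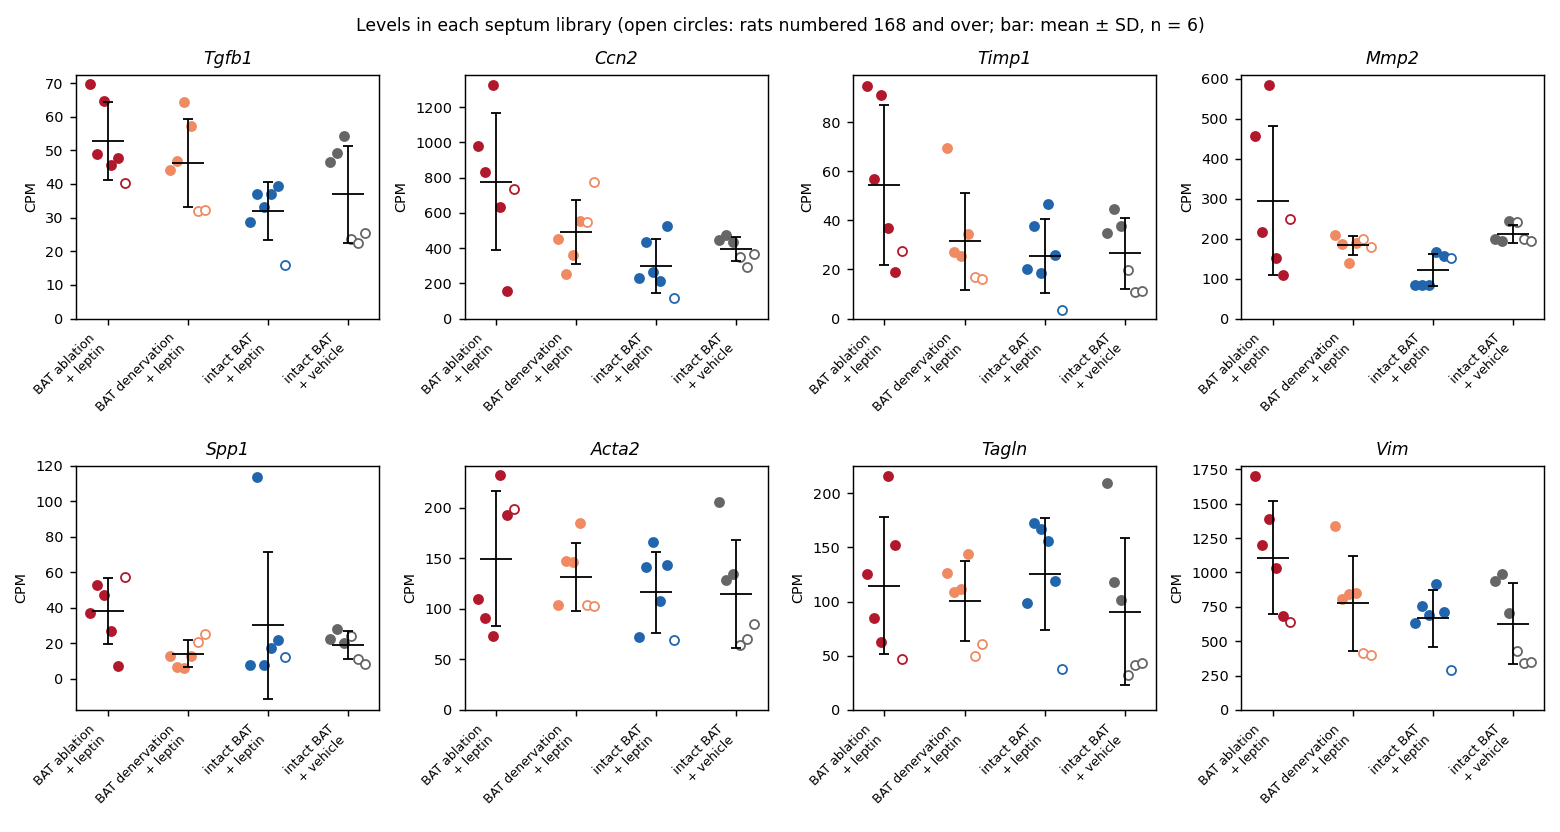
CPM of each gene in each of the 24 septum libraries, by group. Points are rats, open circles are the 7 high-numbered rats, and bars give the mean ± SD (n = 6). The bar of Spp1 with intact BAT and leptin reaches below 0 because 1 of 6 libraries lies at 114 CPM. All 6 ablation libraries of Tgfb1 lie above all 6 of intact BAT with leptin, and the open circles of Tagln lie below the filled ones.

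The comparison of BAT ablation with intact BAT, both under leptin, asks what the absence of BAT changed in the septum of leptin-infused rats. Ccn2 and Mmp2 rose after ablation, and no member fell. At an edgeR adjusted p below 0.05 these were 2 of 8 members, against 1.86% of all tested genes called higher and 3.03% called in either direction. The median log2 difference of the 8 members was 0.73, against -0.02 over all 17347 genes, and 7 of 8 members were above 0. With the rat-number set in the model, Tgfb1, Timp1 and Vim passed as well, making 5 of 8 members higher and none lower, against 9.64% of tested genes called higher and 18.6% called in either direction. Spp1, Acta2 and Tagln did not pass in either fit. With rat number as a linear covariate 5 members passed too, where 23.3% of tested genes did.

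Ccn2 (ENSRNOG00000015036) encodes connective tissue growth factor, a secreted matricellular protein induced by transforming growth factor beta and by mechanical load. It lies on chromosome 1 (20802199 to 20805734 on the minus strand of mRatBN7.2, with 2755 bp of exons). Its level had a lowest, median and highest value of 154, 786 and 1325 CPM in ablated rats, against 119.7, 247 and 527 CPM in BAT-intact rats infused with leptin. 5 of 6 ablation libraries lay above every intact BAT library, and ablation replicate 5 lay far below the other 5. The group means were 777 ± 388 CPM in ablated rats and 298 ± 152.5 CPM in BAT-intact rats (SD, n = 6 each). The log2 difference was 1.38 ± 0.38 (SE, adjusted p = 0.0486 by edgeR) as designed and 1.40 ± 0.37 (adjusted p = 0.0126 by edgeR) with the set term. Within the low-numbered rats (5 and 5) it was 1.24 ± 0.40 and did not pass (adjusted p = 0.0533 by edgeR).

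Mmp2 (ENSRNOG00000016695) encodes gelatinase A, a metalloproteinase that cuts denatured and basement membrane collagens. It lies on chromosome 19 (14154657 to 14182870 on the minus strand, with 3166 bp of exons). Levels had a lowest, median and highest value of 108, 234 and 586 CPM in ablated rats, against 83.8, 119 and 167 CPM in BAT-intact rats. The groups overlapped, since ablation replicates 4 and 5 lay within the intact BAT range and the other 4 above it. Within the intact BAT group, replicates 1, 2 and 3 lay close together at 83.8, 84.0 and 85.2 CPM and replicates 4, 5 and 6 at 167, 156 and 152.3 CPM. The groups differed by a log2 value of 1.28 ± 0.31 (SE, adjusted p = 0.0301 by edgeR) as designed, 1.29 ± 0.30 (adjusted p = 0.00632 by edgeR) with the set term and 1.40 ± 0.37 (adjusted p = 0.0283 by edgeR) within the low-numbered rats.

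Tgfb1 (ENSRNOG00000020652) encodes the cytokine that drives fibroblasts toward the myofibroblast state, and is secreted in a latent form that must be activated. It lies on chromosome 1 (81196532 to 81212847 on the plus strand, with 1456 bp of exons). Levels had a lowest, median and highest value of 40.2, 48.3 and 69.8 CPM in ablated rats, against 15.9, 35.1 and 39.3 CPM in BAT-intact rats. Every ablation library lay above every intact BAT library, which held for 0.496% of tested genes and for 1 of 8 members. As designed the log2 difference of 0.73 ± 0.25 did not pass (SE, adjusted p = 0.113 by edgeR, 95% interval 0.20 to 1.25). It passed with the set term, at 0.78 ± 0.13 (adjusted p = 0.00149 by edgeR), and within the low-numbered rats, at 0.66 ± 0.15 (adjusted p = 0.0189 by edgeR). Of the 8 members only Tgfb1 and Mmp2 passed within the low-numbered rats, where 11.4% of 17890 tested genes did.

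Timp1 (ENSRNOG00000010208) encodes a secreted inhibitor that binds active metalloproteinases. It lies on chromosome X (1212972 to 1217664 on the minus strand, with 873 bp of exons), inside the span of another annotated gene with which it shares no exon bases. Its lowest, median and highest values were 19.0, 46.8 and 94.8 CPM in ablated rats, against 3.39, 23.1 and 46.7 CPM in BAT-intact rats. Ablation replicates 1, 2 and 3 lay above all intact BAT libraries and replicates 4, 5 and 6 among them. On the log2 scale the difference was 1.09 ± 0.51 as designed (adjusted p = 0.262 by edgeR) and 1.24 ± 0.36 with the set term (adjusted p = 0.0188 by edgeR). Within the low-numbered rats it was 1.00 ± 0.38 (adjusted p = 0.0897 by edgeR).

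Vim (ENSRNOG00000018087) lies on chromosome 17 (76668647 to 76677187 on the plus strand, with 1765 bp of exons). It had a lowest, median and highest value of 642, 1113 and 1705 CPM in ablated rats, against 290.3, 700.0 and 914 CPM in BAT-intact rats. Ablation replicates 1 to 4 lay above all intact BAT libraries. The fitted log2 difference was 0.73 ± 0.35 as designed (adjusted p = 0.268 by edgeR), 0.77 ± 0.18 with the set term (adjusted p = 0.00639 by edgeR) and 0.69 ± 0.22 within the low-numbered rats (adjusted p = 0.0522 by edgeR).

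The contractile genes did not pass as designed, with the set term or within the low-numbered rats. Acta2 (ENSRNOG00000058039), the smooth muscle alpha actin whose appearance defines the myofibroblast, lies on chromosome 1 (231746548 to 231759554 on the minus strand, with 1621 bp of exons). It averaged 150 ± 66.6 CPM in ablated rats and 117 ± 40.1 CPM in BAT-intact rats. This was a log2 difference of 0.36 ± 0.32 (SE, adjusted p = 0.603 by edgeR, 95% interval -0.29 to 1.02). Reads shared between near-identical actin genes are dropped when only unique matches are counted, so its level is less certain than the others. Tagln (ENSRNOG00000017628) lies on chromosome 8 (46222472 to 46230668 on the minus strand, with 1276 bp of exons), overlapping another annotated gene with no exon bases in common. It averaged 114 ± 63.2 CPM in ablated rats and 125 ± 51.6 CPM in BAT-intact rats. The log2 difference was -0.13 ± 0.45 (adjusted p = 0.926 by edgeR, 95% interval -1.06 to 0.80). With the set term its interval narrowed to -0.57 to 0.41. Neither interval excludes a moderate change in Acta2 or Tagln.

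Spp1 (ENSRNOG00000043451) encodes osteopontin, a phosphoprotein that binds integrins and is made by macrophages and activated fibroblasts. It lies on chromosome 14 (5308885 to 5315162 on the minus strand, with 1565 bp of exons). The lowest, median and highest values were 7.17, 42.0 and 57.6 CPM in ablated rats, against 7.41, 14.7 and 114 CPM in BAT-intact rats. The highest Spp1 value of all 24 libraries, 114 CPM, came from intact BAT replicate 2, whereas the other 5 rats of that group had 7.41 to 21.8 CPM. The groups differed by a log2 value of 0.34 ± 0.59 (SE, adjusted p = 0.826 by edgeR). Without intact BAT replicate 2 it was 1.52 as designed (adjusted p = 0.114 by edgeR) and 1.504 with the set term (adjusted p = 0.0344 by edgeR). In the latter fit 12.2% of tested genes passed. Of the 12 fits with the set term and 1 library left out, Spp1 passed in 1.

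In the high-numbered rats 1 library stood on each side, ablation replicate 6 and intact BAT replicate 6, and all 8 members were higher in the ablation rat. In the ablation rat Ccn2 was at 737 CPM, Tgfb1 at 40.2, Timp1 at 27.4, Spp1 at 57.6 and Acta2 at 199 CPM. In the intact BAT rat Ccn2 was at 119.7 CPM, Tgfb1 at 15.9, Timp1 at 3.39, Spp1 at 11.9 and Acta2 at 69.7 CPM. Intact BAT replicate 6 was the lowest of its group in 6 of the 8 members, and the pair has no replicate of its own. In the fit of the 7 high-numbered rats, 6 members were called higher (Tgfb1, Ccn2, Timp1, Mmp2, Acta2 and Vim), where 13.7% of tested genes were called.

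The calls rested on a few rats. Ablation replicates 1 and 3 were the 2 highest libraries of the series for Ccn2, Mmp2, Timp1, Vim and Tgfb1, with 978 and 1325 CPM of Ccn2 and 458 and 586 CPM of Mmp2. As designed, no member passed when ablation replicate 1 or 3 or intact BAT replicate 1, 2 or 3 was left out. In those fits 0.0399% to 1.35% of tested genes passed. Over the 12 fits with a library of either group omitted, Ccn2 passed in 3 and Mmp2 in 7 (0.0399% to 5.91% of tested genes). With the set term Tgfb1, Ccn2, Mmp2 and Vim passed in all 12 such fits and Timp1 in 10, being lost without ablation replicate 1 or 3. In the fits with that term 9.43% to 24.5% of tested genes passed. Without both of these ablation rats, Ccn2 stood at a log2 difference of 0.99 (adjusted p = 0.481 by edgeR) and Mmp2 at 0.58 (adjusted p = 0.488 by edgeR) as designed. In that fit 0% of tested genes passed. With the set term and without both, only Tgfb1 of the members passed, at 0.65 (adjusted p = 0.0245 by edgeR), where 2.25% of tested genes did. The intact BAT group was thinned as well. Without its 4 rats numbered 56 to 62, which leaves 2, no member passed without or with the set term (0.00541% and 0.027% of tested genes did). With the term the log2 differences were then 0.77 for Tgfb1, 1.26 for Ccn2, 1.81 for Timp1, 0.93 for Mmp2 and 0.86 for Vim. Their edgeR adjusted p values were 0.154 to 0.370. With no library left out these differences were 0.78, 1.40, 1.24, 1.29 and 0.77 in the same order. With 2 rats left in the group, lost calls do not show how much the omitted rats weighed. In a model of the 12 libraries of the 2 groups alone, no member passed (0% of tested genes did by edgeR). An unadjusted p below 0.05 was seen there for 4 members and for 2344 of 16483 tested genes. The share of mitochondrial reads was 23.1% in ablation replicate 1 and 32.2% in replicate 3, against 37.8% to 45.9% in ablation replicates 2, 4 and 5, 28.9% in replicate 6 and 24.4% to 41.1% with intact BAT. With mitochondrial genes left out of the fit, Ccn2 and Mmp2 were again the 2 members called, where 3.07% of tested genes were. What the share itself contributed to the result was not tested.

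**Figure D2:**
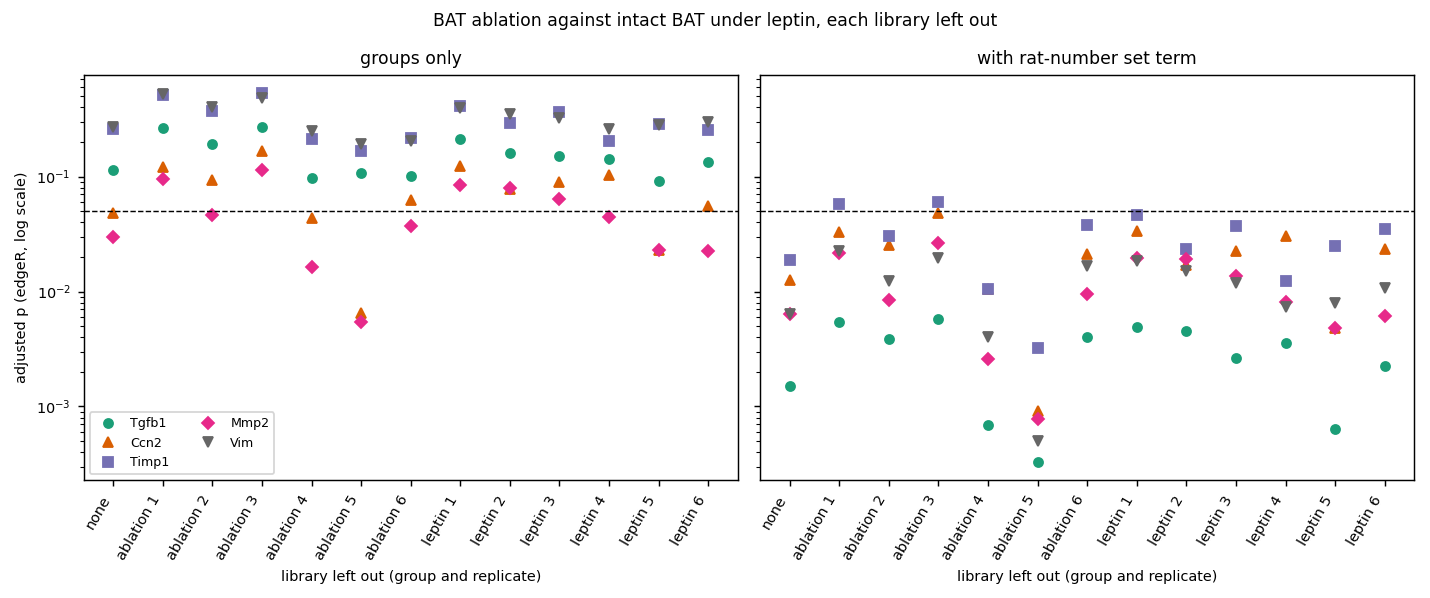
Adjusted p (edgeR, log scale) for BAT ablation against intact BAT under leptin, with no library or 1 of the 12 libraries left out. Shown are the 5 members that passed with the set term when no library was left out. Spp1, not drawn, passed with the set term without intact BAT replicate 2 (adjusted p = 0.0344 by edgeR), where 12.2% of tested genes did. The dashed line marks 0.05. As designed (left) Ccn2 and Mmp2 cross the line and Tgfb1, Timp1 and Vim stay above it, and with the set term (right) only Timp1 crosses back, without ablation replicate 1 or 3.

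The comparison of BAT denervation with intact BAT under leptin asks what the nerve supply of BAT contributed. As designed, no member passed (0% of tested genes did by edgeR). An unadjusted p below 0.05 was seen for 1 member and for 2836 of 17347 tested genes. DESeq2 called 0 members, where it called 3.75% of tested genes. The limma-voom fit with sample weights called Tgfb1 and Mmp2, where it called 22.8% of all tested genes. The median log2 difference of the members was 0.26, against 0.02 over all tested genes. Tgfb1 had a lowest, median and highest value of 32.03, 45.4 and 64.4 CPM in denervated rats, against 15.9, 35.1 and 39.3 CPM in BAT-intact rats. The 4 low-numbered denervation rats lay above every intact BAT rat, and the 2 high-numbered ones, at 32.03 and 32.2 CPM, lay among them but above the high-numbered intact BAT rat at 15.9 CPM. Its log2 difference was 0.53 ± 0.25 as designed (SE, adjusted p = 0.300 by edgeR) and 0.69 ± 0.13 with the set term (adjusted p = 0.0145 by edgeR), where 2.43% of tested genes were called higher and 6.65% in either direction. That call was lost when denervation replicate 4 was left out (adjusted p = 0.0507 by edgeR), where 0.0057% of tested genes passed. It was also lost within the low-numbered rats (adjusted p = 0.0869 by edgeR), where 0.00559% of tested genes passed. It was lost too without the intact BAT rats numbered 56 to 62 (adjusted p = 0.329 by edgeR), where 0.027% of tested genes passed.

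By edgeR no other member passed after denervation as designed, with the set term or within the low-numbered rats. In the 7 high-numbered rats alone, Tgfb1, Ccn2 and Timp1 were called higher (13.5% of tested genes called), against the single leptin library there, intact BAT replicate 6. As designed, Ccn2 averaged 489.8 ± 181 CPM in denervated rats and 298 ± 152.5 CPM in BAT-intact rats. On the log2 scale the difference was 0.72 ± 0.38 (SE, adjusted p = 0.346 by edgeR, 95% interval -0.06 to 1.499). Mmp2 averaged 184 ± 24.1 CPM after denervation and 121 ± 40.8 CPM in the intact group. The fitted log2 difference was 0.60 ± 0.30 (adjusted p = 0.330 by edgeR). Spp1 was the member furthest below 0, with 14.0 ± 7.67 CPM in denervated rats and 29.98 ± 41.4 CPM in BAT-intact rats. Its log2 difference of -1.10 ± 0.60 (adjusted p = 0.357 by edgeR) became 0.078 without intact BAT replicate 2. Timp1, Acta2, Tagln and Vim had log2 differences of -0.32 to 0.31.

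**Figure D3:**
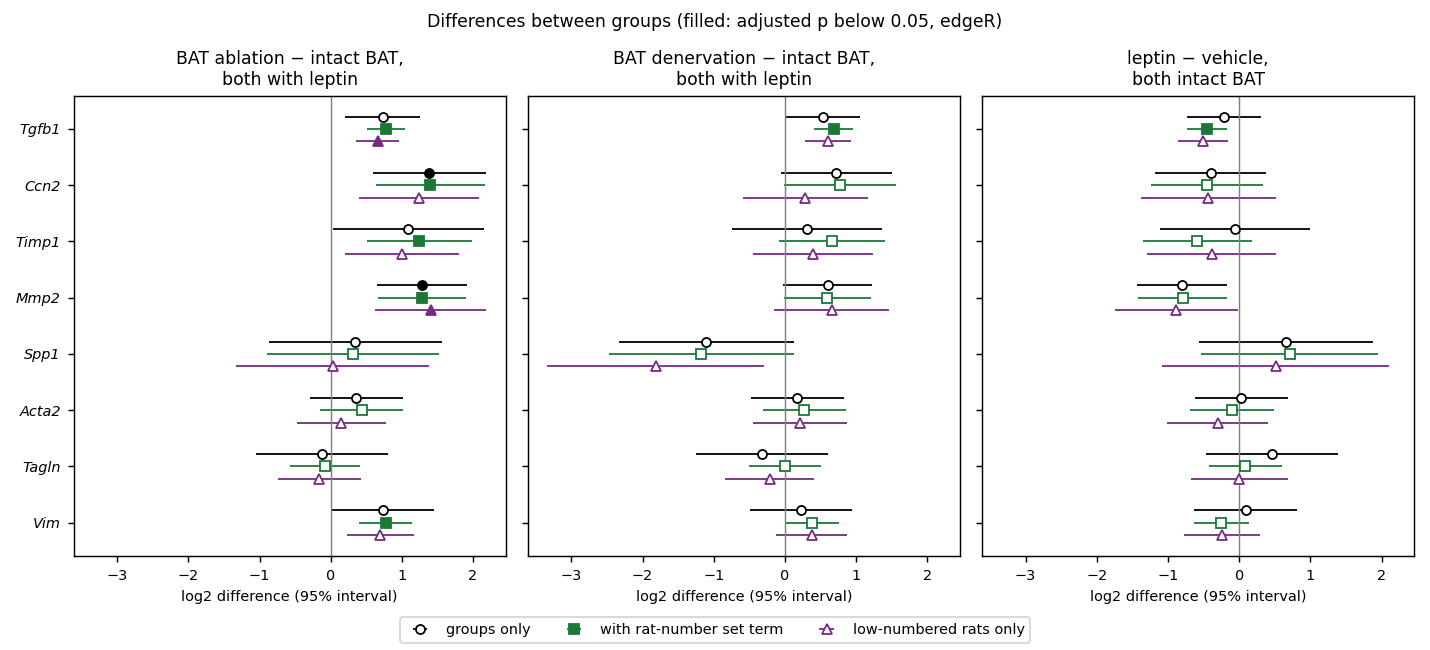
Log2 differences with 95% intervals for the 8 members in 3 comparisons, from the model with groups only (circles), with the rat-number set term (squares) and within the low-numbered rats (triangles). Filled symbols have an edgeR adjusted p below 0.05. Ccn2 and Mmp2 are filled as designed for ablation, 5 members are filled with the set term, and Tgfb1 is the one member filled with the set term in all 3 comparisons, above 0 after ablation and denervation and below 0 for leptin against vehicle.

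The comparison of leptin with vehicle, both with intact BAT, asks what central leptin changed in the injured heart. No member passed as designed (0.674% of tested genes did by edgeR). An unadjusted p below 0.05 was seen for 1 member and for 4059 of 17347 tested genes. DESeq2 called 0 members, where it called 10.7% of tested genes. The voom fit with sample weights called Mmp2 lower and Acta2, Tagln and Vim higher, 4 of 8 members where it called 60.7% of all tested genes. The median log2 difference of the members was -0.02, against -0.03 over all tested genes. Mmp2 had a lowest, median and highest value of 83.8, 119 and 167 CPM with leptin, against 194, 199 and 244 CPM with vehicle. Every leptin library lay below every vehicle library, which held for 0.663% of tested genes and for no other member. The log2 difference of -0.80 ± 0.31 did not pass (SE, adjusted p = 0.129 by edgeR), nor did it with the set term (-0.79 ± 0.30, adjusted p = 0.105 by edgeR). With a library of either group omitted it was called in 1 of 12 fits, the one without leptin replicate 6 (adjusted p = 0.0494 by edgeR). In that fit 25.4% of tested genes were called.

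Tgfb1 was lower with leptin in the model with the set term. It averaged 31.9 ± 8.66 CPM in leptin rats and 36.9 ± 14.5 CPM in vehicle rats. This was a log2 difference of -0.21 ± 0.25 as designed (adjusted p = 0.610 by edgeR) and -0.45 ± 0.13 with the set term (adjusted p = 0.0469 by edgeR). In that fit 1.97% of tested genes were called lower and 6.13% in either direction. The 5 low-numbered leptin rats had 28.7 to 39.3 CPM and the 3 low-numbered vehicle rats 46.5 to 54.1 CPM, with no overlap. The difference within these rats was -0.51 ± 0.17 and did not pass (adjusted p = 0.157 by edgeR, where 0% of tested genes passed). With 1 library left out, the set-term call held in 1 of 12 fits, the one without leptin replicate 5, where 12.7% of tested genes passed. In the high-numbered rats alone Tgfb1, Ccn2 and Timp1 were called lower with leptin (14.9% of tested genes called), where leptin replicate 6 was set against 3 vehicle rats. The other 6 members had log2 differences of -0.40 to 0.66 as designed, of which Acta2 at 0.03, Timp1 at -0.06 and Vim at 0.09 lay nearest to 0. Vim and Acta2 lay on the other side of 0 with the set term, at -0.25 and -0.10.

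Ablation and denervation were also set against vehicle, and these comparisons share their libraries with those above. For ablation against vehicle edgeR called 0 members as designed (0% of tested genes). An unadjusted p below 0.05 was seen for 2 members and for 1892 of 17347 tested genes. DESeq2 called 0 members (0.121% of tested genes). The voom fit called 6 members, where it called 55.7% of tested genes, and the fit with rat number as a linear covariate called 5, where it called 39.2%. In the high-numbered rats alone 4 members were called higher in the single ablation rat (2.33% of tested genes called). All 8 members had log2 differences above 0, with a median of 0.67 against 0.03 over all tested genes. Ccn2 averaged 777 ± 388 CPM in ablated rats and 393 ± 68.8 CPM in vehicle rats. The log2 difference was 0.98 ± 0.38 (SE, adjusted p = 0.457 by edgeR). Vim averaged 1107 ± 412 CPM in ablated rats and 626 ± 294 CPM in vehicle rats. The groups differed by a log2 value of 0.82 ± 0.35 (adjusted p = 0.457 by edgeR). For Mmp2 the means were 295 ± 187 CPM after ablation and 212 ± 23.7 CPM in the vehicle group. On the log2 scale the difference was 0.48 ± 0.30 (adjusted p = 0.494 by edgeR). With the set term 8 members lay above 0 for ablation against vehicle, with a median of 0.51 against 0.03 over all tested genes. Within the low-numbered rats 6 of 8 did, with a median of 0.49 against 0.04. Both of these fits called 0 members (0% of tested genes). For denervation against vehicle edgeR called 0 members (0% of tested genes), as did DESeq2 (0%). An unadjusted p below 0.05 was seen for 0 members and for 348 of 17347 tested genes. The voom fit called 5 members, where it called 46.4% of tested genes. The log2 differences lay between -0.44 for Spp1 and 0.32 for Tgfb1.

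The 2 operations were compared directly. For ablation against denervation edgeR called 0 members (0% of tested genes). An unadjusted p below 0.05 was seen for 2 members and for 778 of 17347 tested genes. DESeq2 and the voom fit called 0 members (0% and 0.311% of tested genes). With rat number as a linear covariate, Timp1 and Vim were called higher after ablation, where that fit called 19.6% of tested genes. Spp1 had a lowest, median and highest value of 7.17, 42.0 and 57.6 CPM after ablation, against 5.81, 12.8 and 25.0 CPM after denervation. 5 of 6 ablation rats lay above every denervation rat, and ablation replicate 5 lay among the lowest. The fitted log2 difference was 1.45 ± 0.60 (SE, adjusted p = 0.890 by edgeR, 95% interval 0.21 to 2.69). Mmp2 had a difference of 0.68 ± 0.30 (adjusted p = 0.890 by edgeR). With groups only and with the set term, 0 members passed between the operations.

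**Figure D4:**
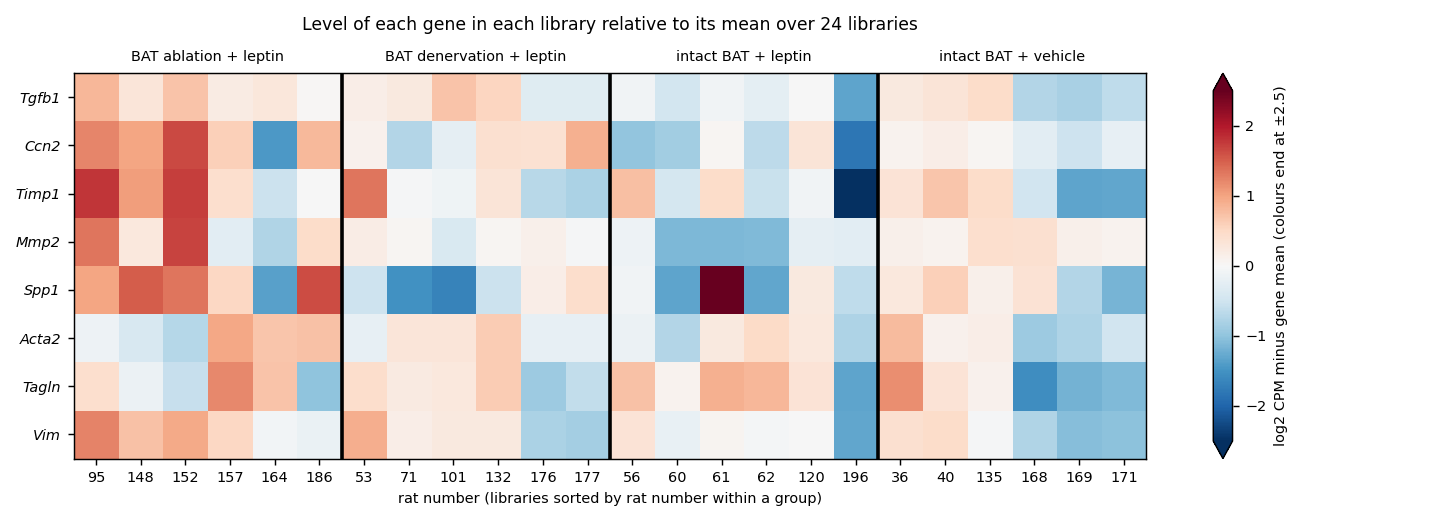
Log2 CPM of each member in each library minus its mean over the 24 libraries, with libraries sorted by rat number within each group and black lines between groups. Red is above and blue below the gene's mean. The first rows are red across most of the ablation group. The last columns of each group are the high-numbered rats, where Tagln and Vim are blue throughout. Ccn2 is red in the high-numbered rats of both operations, and Mmp2 in those of the ablation and vehicle groups. Spp1 of rat 61 (114 CPM) stands out in the intact BAT group.

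Ordered by group mean, ablation was highest for 7 of the 8 members, and for Tagln intact BAT with leptin was. Intact BAT with leptin was lowest for Tgfb1, Ccn2, Timp1 and Mmp2, vehicle for Acta2, Tagln and Vim, and denervation for Spp1. The ratio of the highest to the lowest group mean was 2.73 for Spp1, 2.61 for Ccn2, 2.43 for Mmp2, 2.13 for Timp1, 1.77 for Vim, 1.66 for Tgfb1, 1.38 for Tagln and 1.31 for Acta2. As designed, the adjusted test was passed only between ablation and intact BAT with leptin, the ends of the order of Ccn2 and Mmp2, and between no neighbouring groups in any order. The group means mix the rat-number sets. Among the low-numbered rats Acta2 averaged 156 CPM with vehicle, 146 after denervation, 140 after ablation and 126 with intact BAT and leptin. Tagln averaged 143 CPM with vehicle and with intact BAT and leptin, 128 after ablation and 123 after denervation. Vim was lowest there with intact BAT and leptin, at 741 CPM. For the other members the highest and lowest groups were unchanged.

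The members were compared with each other across rats, separately in each rat-number set because the sets form clusters. The 17 low-numbered libraries span all 4 groups, so these correlations include differences between groups. Of 56 pairs over both sets, 12 of 28 in the low-numbered rats had a permutation p adjusted below 0.05 by the Benjamini-Hochberg method. Timp1 and Vim followed each other most closely (Pearson r = 0.918, permutation p = 1e-05, the smallest these resamples can give, adjusted p = 0.00056, Spearman rho = 0.843, adjusted permutation p = 0.0022, n = 17). Without the 2 libraries farthest from the Timp1 median r was 0.856. Timp1 and Mmp2 had r = 0.832 and rho = 0.789 (adjusted permutation p = 0.0019 and 0.0074), and r was 0.665 without 2 libraries. Ccn2 and Timp1 had r = 0.766 and rho = 0.63 (adjusted permutation p = 0.0037 and 0.0399), and r was 0.639 without 2 libraries.

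In the low-numbered rats the contractile genes formed a pair of their own. Acta2 and Tagln had r = 0.786 and rho = 0.676 (adjusted permutation p = 0.0025 and 0.0222, n = 17), and r was 0.699 without 2 libraries. With the 4 matrix and signalling genes Tgfb1, Ccn2, Timp1 and Mmp2 and with Vim, r of Tagln was -0.499 to -0.237, with no adjusted permutation p below 0.05. Among 13382 genes with a mean of at least 1 CPM, Acta2 was the gene with the 5th highest r with Tagln, and Tagln the one with the 12th highest r with Acta2. Timp1 ranked 12th for Vim and Vim 40th for Timp1. For the other members the nearest member ranked lower: 46th for Spp1 (Ccn2), 296th for Ccn2 (Timp1), 632nd for Mmp2 (Timp1) and 913th for Tgfb1 (Mmp2). Many genes outside the list thus followed Ccn2, Mmp2 and Tgfb1 more closely than any member did. The genes ranked above have no symbol in the table used here. In the 7 high-numbered rats 6 of 28 pairs passed, the closest being Tgfb1 and Ccn2 (r = 0.966, exact permutation p = 0.0014, adjusted p = 0.0086, rho = 0.964). By Spearman's rho 2 pairs passed in that set. Acta2 did not stand apart there, and passed with Tgfb1 (r = 0.844, exact permutation, adjusted p = 0.0481). It had r = 0.835 with Vim, 0.705 with Ccn2, 0.578 with Timp1 and 0.429 with Mmp2. Acta2 and Tagln had r = 0.573 and rho = 0.857 (exact permutation, adjusted p = 0.243 and 0.0741). Tagln had r = 0.641 with Tgfb1 and 0.687 with Ccn2, but 0.286 with Timp1, 0.244 with Vim and -0.184 with Mmp2.

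**Figure D5:**
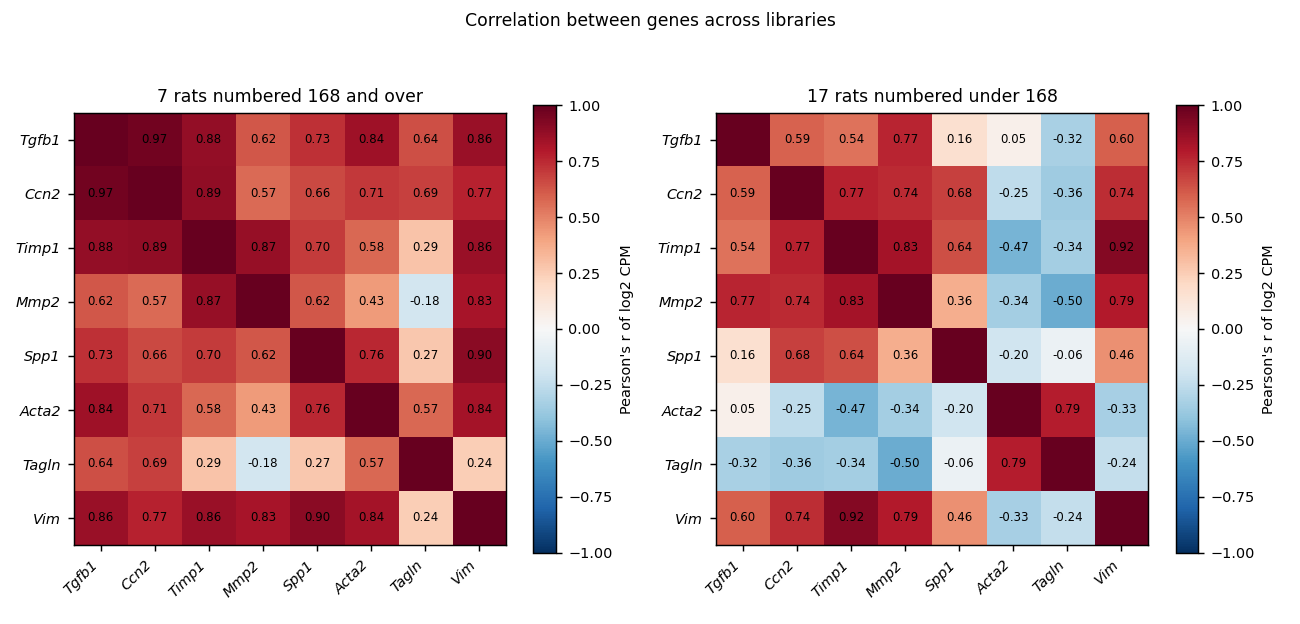
Pearson's r of log2 CPM between members across the 7 libraries of high-numbered rats (left) and the 17 of low-numbered rats (right). In the low-numbered rats Timp1, Mmp2, Ccn2 and Vim form a red block, with Timp1 and Vim at 0.92, and Acta2 and Tagln pair at 0.79 while lying at or below 0.05 with Tgfb1, Ccn2, Timp1, Mmp2 and Vim.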

How the data were processed

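RNA from the heart septum of 24 rats was sequenced, and the authors deposited 1 table of read counts per gene. The tools that the submitters' processing notes name are STAR 2.7.10a, featureCounts 2.0.2, DESeq2 and R 4.4.1. Per the file headers the counts came from featureCounts 2.0.6 with Ensembl 113 on mRatBN7.2, in paired mode but without the options for read pairs, strand or multiple matches. The counts are therefore of reads, not fragments, and sense and antisense reads cannot be told apart. The deposited counts were not normalized. A further 5 columns of per-sample values matched none of the samples and were not used. Library totals were 71587993 to 122910706 reads. Replicates are separately numbered rats, and 0 library pairs were identical.

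Low genes were removed with filterByExpr, which kept 17347 of 30562 genes. All 24 libraries were fitted in 1 model with edgeR 4.0.16 (TMM normalization, robust quasi-likelihood fit, groups only), and p-values were adjusted over all tested genes by the Benjamini-Hochberg method at 0.05. Standard errors were derived from the quasi-likelihood F statistic, and 95% intervals from the t distribution with the fit's degrees of freedom. log2 CPM used a prior count of 2. Correlations used 100000 resamples in the low-numbered set and exact permutation in the high-numbered set. The model was tested on simulated data. R 4.3.3, limma 3.58.1 and DESeq2 1.42.0 were used for the alternatives, which changed the scaling, the filter, the tool, the libraries and the covariates. The boundary between rat-number sets was read from the first principal component of these data. The fits without ablation replicates 1 and 3, without intact BAT rats 56 to 62, of the high-numbered rats alone and with both the block and the set were chosen after seeing the data.

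The members and lists were chosen with earlier results of these data known, and all 8 members are named in each comparison by rule. RefSeq gave the same chromosome for 8 of 8 symbols. The pathway and marker lists were not run, since 0 of 30562 gene IDs matched a symbol in the RefSeq table. Promoters came from RefSeq on GRCr8.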

Additional observations from a re-analysis of the deposited data

Results flagged for a closer look

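Of 32 sets of 6 libraries (8 members in 4 groups), 2 held a library whose gap to its nearest neighbour, as a share of the set's range, was above Dixon's 95% critical value. Chance gives such a gap in about 1 in 20 sets. In the denervation group Timp1 stood at 69.3 CPM in replicate 1 (rat 53), against 34.6 CPM in the next highest library, a gap of 0.651 of the range. In the intact BAT group with leptin Spp1 stood at 114 CPM in replicate 2 (rat 61), against 21.8 CPM in the next highest library, a gap of 0.865 of the range. Without that library the log2 difference of Spp1 was 1.52 for ablation against intact BAT, 0.08 for denervation against intact BAT and -0.52 for leptin against vehicle.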

How the results depend on the processing

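Of 1968 values of single members under another setting, 1835 kept their direction and 133 changed sign, none of them past the threshold in either fit. The cause was not tested. Values below are log2 differences, or numbers of members called. Depth limits none of these results, since the smallest count of a member was 275 reads. Group sizes of 6, the spread of rats within groups and the unequal share of rat-number sets limit all of them, and no fit separates the set from whatever the rat numbers stand for.

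For ablation against intact BAT with leptin, 1 member was called with RLE scaling, with upper-quartile scaling and without the filter (2.96%, 2.63% and 0.972% of tested genes called). With library size only, and with only the 2 groups compared, 0 were (1% and 0% of tested genes). With the set term 5 were (18.6% of tested genes), with rat number as a linear covariate 5 (23.3%), and in the high-numbered rats 6 (13.7%). Without ablation replicates 1 and 3 there were 0 as designed and 1 with the set term (0% and 2.25% of tested genes). Without rats 56 to 62 there were 0 in both fits (0.00541% and 0.027%). Tagln lay at 0.31 in the high-numbered rats, 0.71 with the linear covariate, 0.11 with the set term and without ablation replicates 1 and 3, and 0.55 and, with the set term, 0.19 without rats 56 to 62. Acta2 lay at -0.12 by voom.

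For denervation against intact BAT with leptin, 2 members were called by voom (22.8% of tested genes), 1 with the set term (6.65%) and 3 in the high-numbered rats (13.5%). In the high-numbered rats Spp1 and Tagln lay at 0.92 and 0.54. Tagln lay at 0.080 with the linear covariate and, without rats 56 to 62, at 0.36 as designed and 0.25 with the set term.

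For leptin against vehicle, 4 members were called by voom (60.7% of tested genes), with Tgfb1 at 0.37 and Timp1 at 0.82, 1 with the set term (6.13%) and 3 in the high-numbered rats (14.9%). In the high-numbered rats Spp1 lay at -0.26, Acta2 at -0.058, Tagln at -0.040 and Vim at -0.36. Timp1 lay at 0.036 with library size only. Acta2 and Vim lay at -0.10 and -0.25 with the set term, -0.036 and -0.14 with the linear covariate, and -0.30 and -0.24 in the low-numbered rats. Without rats 56 to 62, as designed and with the set term, Spp1 lay at -0.17 and -0.16, Acta2 at -0.10 in both, Tagln at -0.22 and -0.17 and Vim at -0.32 and -0.34.

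For ablation against vehicle, 6 members were called by voom (55.7% of tested genes), 5 with the linear covariate (39.2%) and 4 in the high-numbered rats (2.33%). In the low-numbered rats Acta2 and Tagln both lay at -0.16. Without ablation replicates 1 and 3 Mmp2 lay at -0.22 as designed and -0.19 with the set term. For denervation against vehicle, 5 members were called by voom (46.4% of tested genes), Spp1 lay at 0.66 in the high-numbered rats, and in the low-numbered rats Ccn2, Acta2 and Tagln lay at -0.15, -0.09 and -0.22. For ablation against denervation, 2 members were called with the linear covariate (19.6% of tested genes), and Tagln lay at -0.23 in the high-numbered rats. By voom Tgfb1, Acta2 and Tagln lay at -0.0016, -0.41 and -0.22. Tagln lay at -0.076 with the set term and Acta2 at -0.063 in the low-numbered rats. Without ablation replicates 1 and 3 Tgfb1 and Mmp2 both lay at -0.016 as designed, and at -0.027 and -0.016 with the set term. Among pairs in the high-numbered rats, 2 passed by Spearman's rho, against 6 by Pearson's r.

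With 1 replicate left out and groups only, 0 to 2 members were called for ablation against intact BAT (0.0399% to 5.91% of tested genes). For denervation against intact BAT 0 were (0% to 3.69%), and for leptin against vehicle 0 to 1 (0.0057% to 25.4%). With the set term, 4 to 6, 0 to 1 and 0 to 1 members were called in the same order. The shares of tested genes were then 9.43% to 24.5%, 0.0057% to 13.3% and 0.559% to 12.7%. The ranges that follow take both models together. Tagln lay between -0.41 and 0.063 for ablation against intact BAT. For denervation against intact BAT, Spp1 lay between -1.47 and 0.078, Tagln between -0.51 and 0.067, Timp1 between -0.086 and 0.89 and Vim between -0.0043 and 0.46. For leptin against vehicle, Acta2 lay between -0.20 and 0.28, Spp1 between -0.52 and 0.96, Timp1 between -0.81 and 0.17 and Vim between -0.32 and 0.27. For ablation against vehicle, Acta2 lay between -0.024 and 0.64 and Tagln between -0.19 and 0.77. For denervation against vehicle, Tagln lay between -0.037 and 0.58 and Timp1 between -0.15 and 0.46. For ablation against denervation, Acta2 lay between -0.17 and 0.33, Tagln between -0.27 and 0.35 and Tgfb1 between -0.020 and 0.32.

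Libraries with the same replicate number had mean correlations of their deviations of 0.374, 0.276, 0.102, -0.094, 0.066 and 0.689 for numbers 1 to 6. Of the 24 libraries, 9 correlated best with their own number. Every library numbered 6 came from a high-numbered rat, so this check does not separate a pairing by replicate number from the rat-number set. With a replicate block, 2 members were called for ablation against intact BAT (5.89% of tested genes), namely Mmp2 and Tgfb1 (edgeR adjusted p = 0.0385), while Ccn2 did not pass (edgeR adjusted p = 0.0626). With the replicate block and the set term, 5 members were called for ablation and 1 for denervation against intact BAT (16.2% and 5.63% of tested genes). In that fit Tagln lay at 0.025 for denervation against intact BAT, -0.18 for ablation against vehicle, -0.21 for ablation against denervation and -0.00018 for leptin against vehicle. Acta2 lay at -0.35 and Vim at -0.11 for leptin against vehicle, and Acta2 at -0.028 for ablation against denervation.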
